A study of Mus musculus with 20 samples.

Results

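The voltage-gated sodium channel genes examined here were the 6 alpha subunit genes Scn1a, Scn3a, Scn8a, Scn9a, Scn10a and Scn11a and the 2 beta subunit genes Scn2b and Scn3b, which are 8 of the 21887 protein-coding genes in the annotation. They were chosen by name, with earlier results of these data known. For each gene, the peaks of 14 libraries that overlapped its window, the gene body plus 20 kb on each side in mm10, were collected. The libraries came from C57BL/6J mouse embryos at embryonic stage E11.5, from tissue labelled CVGs, an abbreviation that inner ear studies use for cochleovestibular ganglia, which hold the auditory and vestibular neurons. No treatment or mutant allele is named, so all groups share 1 genotype, and the comparisons are between targets and between genes. The groups were ISL1_26 (n = 1 library), ISL1_70 (n = 3), POU4F1 (n = 2), H3K27ac (n = 3), H3K4me3 (n = 2) and H3K27me3 (n = 3). ISL1_26 and ISL1_70 carry the same antibody label, ISL1, and were read as 1 target. A further 6 IgG libraries were not analysed here. The series title poses the question of how ISL1 and POU4F1 act together in inner ear sensory neurons.

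A voltage-gated sodium channel is built around 1 large alpha subunit, which forms the pore and opens when the membrane depolarises, and this inward current is the rising phase of the action potential. Beta subunits are small membrane proteins with an immunoglobulin domain that change the gating of the alpha subunit and its delivery to the membrane. Sensory neurons use several alpha subunits side by side, and Scn9a, Scn10a and Scn11a are best known from pain-sensing neurons of other sensory ganglia. ISL1 is a LIM homeodomain factor and POU4F1 a POU homeodomain factor, and both are needed for the development of sensory neurons. CUT&Tag maps such factors, and histone marks, by tethering a DNA-cutting transposase to them through an antibody. H3K27ac lies on active enhancers and promoters, H3K4me3 on promoters, and H3K27me3 on chromatin held silent by Polycomb complexes.

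Each list held between 8855 peaks (H3K27ac replicate 1) and 168144 peaks (H3K27ac replicate 3), and the sequencing depth behind the lists is unknown. The library labelled H3K4me3 replicate 1 shared far more of its covered bases with H3K27me3 replicates 2 and 3 (Jaccard index 0.742 and 0.496) than with H3K4me3 replicate 2 (0.036). In H3K27me3 replicate 1, the median −log10 q of the peaks was 1.09, close to the value of 1 at which the lists end. Of 11 sensory neuron markers, 9 had H3K27ac at a gene end in at least 2 libraries, against 47.5% of all genes, and Gata3 and Ntrk3 did not. H3K27ac was likewise present for 3 of 5 glial and neural crest markers, 2 of 4 otic epithelium markers, 0 of 4 mesenchyme markers, 1 of 4 endothelium and blood markers and 1 of 2 muscle markers. H3K27me3 was at a gene end in at least 2 libraries for 10 of 11 sensory neuron markers, against 20.5% of all genes, and 8 of these had both marks. It was there for 4 of 5 glial and neural crest, 3 of 4 otic epithelium, 4 of 4 mesenchyme, 1 of 4 endothelium and blood and 1 of 2 muscle markers. Each library pools all cells of the dissected tissue, so marks in the same cells cannot be told apart from marks in different cells, nor fewer marked cells from a weaker mark per cell. The labels do not say whether replicates came from separate embryos.

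Promoter sequences show how differently these genes begin. The stretches printed here are the 250 bases before the start site of 4 alpha subunit genes, from RefSeq on GRCm38.p6, whose chromosomes are those of mm10. They were chosen because Scn9a carried every histone mark there, Scn10a carried ISL1 and H3K27ac only, Scn11a carried no peak, and Scn8a is rich in CpG. Capitals mark a match to CTAATG, a LIM homeodomain type motif, or to ATNATTAAT, a POU4 type motif, searched on both strands. The 4 stretches lie on mm10 at chr2:66634963-66635212 (minus strand), chr9:119719033-119719282 (minus strand), chr9:119825457-119825706 (minus strand) and chr15:100870395-100870644 (plus strand).
Scn9a: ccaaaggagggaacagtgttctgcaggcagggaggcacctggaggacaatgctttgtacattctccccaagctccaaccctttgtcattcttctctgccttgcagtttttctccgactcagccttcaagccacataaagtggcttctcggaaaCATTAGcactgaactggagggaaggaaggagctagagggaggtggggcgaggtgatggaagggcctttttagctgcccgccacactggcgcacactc
Scn10a: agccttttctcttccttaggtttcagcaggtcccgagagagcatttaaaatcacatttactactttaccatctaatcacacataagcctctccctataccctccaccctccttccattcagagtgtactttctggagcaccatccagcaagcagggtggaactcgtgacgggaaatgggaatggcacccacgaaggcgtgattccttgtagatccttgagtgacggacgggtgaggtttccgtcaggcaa
Scn11a: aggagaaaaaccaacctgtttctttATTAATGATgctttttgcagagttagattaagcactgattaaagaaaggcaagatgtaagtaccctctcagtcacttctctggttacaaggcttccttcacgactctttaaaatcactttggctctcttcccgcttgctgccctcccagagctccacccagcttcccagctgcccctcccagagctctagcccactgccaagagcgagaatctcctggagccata
Scn8a: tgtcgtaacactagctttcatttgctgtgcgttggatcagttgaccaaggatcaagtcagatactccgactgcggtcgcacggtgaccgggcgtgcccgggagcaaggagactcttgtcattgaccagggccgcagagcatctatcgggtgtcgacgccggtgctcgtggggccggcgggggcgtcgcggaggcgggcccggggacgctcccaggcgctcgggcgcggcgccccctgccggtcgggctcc

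These stretches contained 5 CpG in Scn9a, 8 in Scn10a, 3 in Scn11a and 30 in Scn8a, against a median of 10 over 21263 RefSeq promoters. Their GC content was 54.4% in Scn9a, 49.6% in Scn10a, 48.0% in Scn11a and 68.0% in Scn8a, against a median of 55.6%. The CTAATG match in Scn9a began 97 bases before the start site on the minus strand of the printed sequence, and 5.69% of all promoters hold this motif. The ATNATTAAT match in Scn11a began 225 bases before the start site, also on the minus strand of the printed sequence, and 0.870% of all promoters hold it. No match to either motif, or to the related CTAATT (6.69% of all promoters), was found in the Scn10a and Scn8a stretches, nor in those of Scn1a and Scn2b. CTAATG and CTAATT differ in their last base, and either may overlap ATNATTAAT. Each match is a description of letters in this window.

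A region was called replicated when overlapping peaks of a target came from at least 2 of its libraries. Replicated ISL1 regions lay in the windows of 7 of the 8 sodium channel genes, all but Scn2b, against 45.6% of all protein-coding genes and 51.3% of genes whose windows were as long as theirs. The windows held 23 such regions, 2.00 per 100 kb of window in the sodium channel genes against 1.07 per 100 kb over all genes. ISL1_26 had a peak in 21 of the 23. Without that library, 7 regions remained replicated, in the 4 genes Scn9a, Scn10a, Scn11a and Scn3b, against 24.5% of all genes by the same rule, and without ISL1_70 replicate 1 there were 15 regions. Only 2 of the 23 regions, 1 inside Scn9a and 1 inside Scn10a, were called in all 4 ISL1 libraries, while 16 were called in 2 libraries and 5 in 3. Over the genome, 7.58% of replicated ISL1 regions were called in 4 libraries.

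Of the 23 ISL1 regions, 9 overlapped a replicated H3K27ac region, against 47.5% of all ISL1 regions, so the acetylated share in the sodium channel windows was near the background. This overlap rests on single libraries: it was 3 regions without ISL1_26, 5 without ISL1_70 replicate 3, and 1 without either H3K27ac replicate 2 or H3K27ac replicate 3. Replicated H3K27ac was present in the windows of all 8 genes, against 69.8% of all genes and 79.6% of genes with windows of like length. Leaving out H3K27ac replicate 2, or leaving out replicate 3, left 3 genes. H3K27me3 was replicated in 5 windows (Scn1a, Scn8a, Scn9a, Scn2b and Scn3b), against 37.5% of all genes and 38.7% of genes with windows of like length. H3K4me3 was replicated in 3 windows (Scn8a, Scn9a and Scn2b), against 13.6% of all genes and 13.5% of genes with windows of like length. The region in the Scn2b window lay over the neighbouring gene Scn4b. With 2 libraries, each replicated H3K4me3 region needs a peak of the library labelled H3K4me3 replicate 1. With H3K4me3 replicate 2 alone, all 8 genes had at least 1 peak in the window, against 67.8% of all genes and 75.4% of those with windows of like length. With replicate 1 alone 5 genes did, against 40% of all genes and 41.4% of those with windows of like length.

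**Figure D1:**
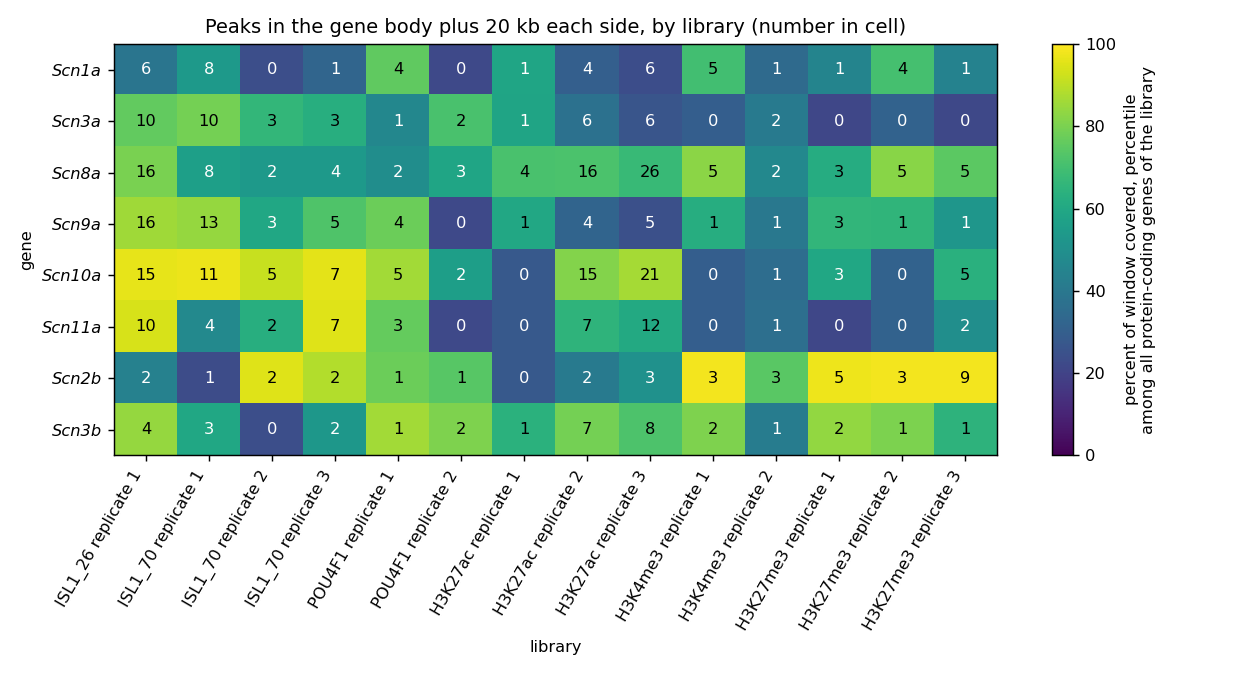
Number of peaks (in the cells) in the window of each sodium channel gene (rows) for each of 14 libraries (columns); the colour is the percentile, among all protein-coding genes of that library, of the percent of the window covered by peaks, with tied genes at their middle rank. Scn10a reached percentiles of 91.6 to 97.1 in the 4 ISL1 libraries, and Scn2b reached 97.3 to 98.3 in the 3 H3K27me3 libraries.

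No POU4F1 region in any of the 8 windows was shared by both POU4F1 libraries, while 2.45% of all genes, and 2.42% of genes with windows of like length, had such a region. Single-library POU4F1 peaks were present: 21 of replicate 1, in all 8 windows (58.0% of all genes had one), and 10 of replicate 2, in 5 windows (55.7% of all genes). A peak of either library is common, found in the windows of 78.0% of all genes and of 84.6% of genes with windows of like length. Of these 31 POU4F1 peaks, 9 overlapped an ISL1 peak of at least 1 library, against 17.4% of all POU4F1 peaks. Seen from the ISL1 side, 4 of the 23 replicated regions held a POU4F1 peak, against 17.2% of all ISL1 regions, and 1 did once POU4F1 replicate 1 was left out.

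Among the alpha subunits, Scn10a, which encodes a tetrodotoxin-resistant channel of pain-sensing neurons, had the densest ISL1 signal. Its window (chr9:119588456-119739322) contained 15 peaks of ISL1_26 and 11, 5 and 7 peaks of ISL1_70 replicates 1 to 3. They covered 6.95%, 6.47%, 1.80% and 3.33% of the window in these 4 libraries. Scn10a thus stood at percentiles of 91.6 to 97.1 among all genes in the 4 ISL1 libraries, and no other of the 8 genes stayed that high in all 4. The 5 replicated regions amounted to 3.31 per 100 kb, a percentile of 90.5 among all genes.

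The region at chr9:119631256-119635229 lies inside Scn10a, 85.8 kb downstream of the start site, and was called in all 4 ISL1 libraries. At 3.97 kb it was among the widest ISL1 regions of the genome, with only 0.0882% of them wider. Its best peak ranked 12 of 95719 in the ISL1_26 list (−log10 q of 634), 402 of 80293 in ISL1_70 replicate 1 (168), 265 of 24573 in replicate 2 (460) and 95 of 41668 in replicate 3 (1010). It was a leading peak in each list, and the 4 summits agreed closely, at −1.31, −1.27, −1.19 and −1.31 kb from the centre of the region. A second ISL1 summit at 0.895 kb in ISL1_70 replicate 2 and at 0.839 kb in replicate 3 lay close to the summit of a POU4F1 replicate 1 peak at 0.822 kb. That POU4F1 peak (chr9:119633713-119634412) was a middling one, ranked 21216 of 34249. POU4F1 replicate 2 had a peak at chr9:119630879-119631333, at the other edge of the ISL1 region, so the 2 libraries did not mark the same position.

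The ISL1 region sat within a replicated H3K27ac region of 6.61 kb (chr9:119628784-119635388). The H3K27ac peak over it ranked 191 of 106628 in replicate 2 and 780 of 168144 in replicate 3, and replicate 1 had no peak in the whole Scn10a window. No H3K27me3 peak and no replicated H3K4me3 region overlapped the ISL1 region. A neighbouring ISL1 region, chr9:119628454-119629264, was called in 2 libraries and also carried replicated H3K27ac and a POU4F1 replicate 1 peak.

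**Figure D2:**
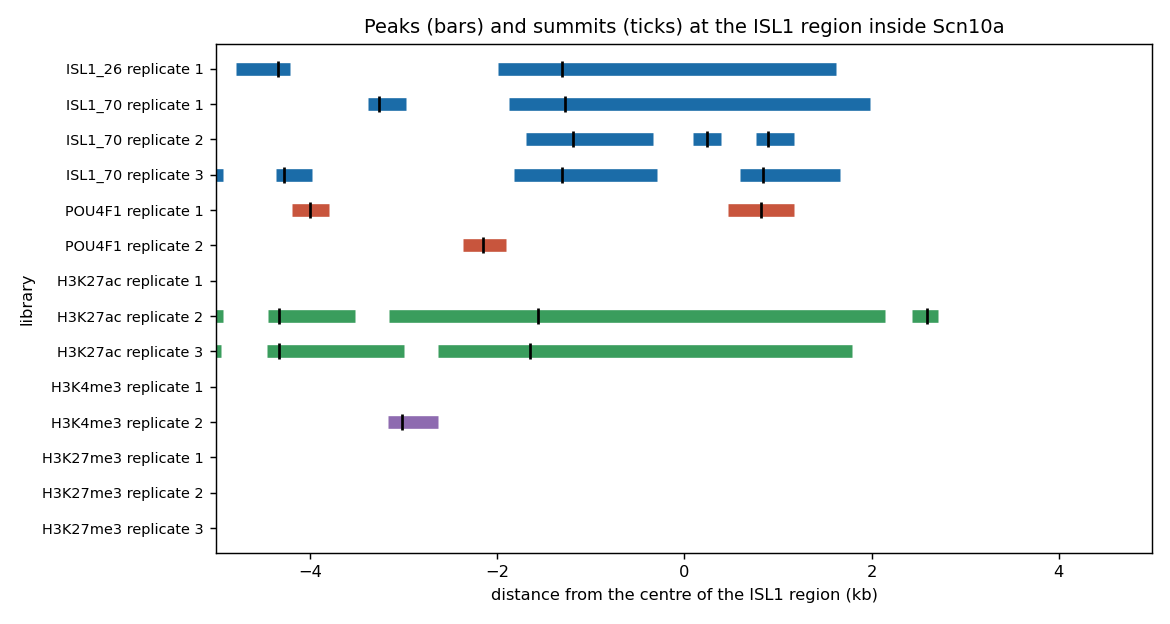
Peaks (bars) and their summits (black ticks) in 14 libraries (rows) within 5 kb of the centre of the ISL1 region inside Scn10a; the horizontal axis is the distance from that centre in kb. The main ISL1 summits lie between −1.31 and −1.19 kb, H3K27ac replicates 2 and 3 span the region, and the 2 POU4F1 libraries have peaks at different positions, with summits at 0.822 and −2.15 kb.

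The Scn10a start site carried ISL1 at chr9:119718643-119719762, in ISL1_26 and ISL1_70 replicate 3, and H3K27ac in replicates 2 and 3. The ISL1 peaks overlapped only at their edges and ranked 14.3% and 87.5% of the way down these 2 lists. The H3K27ac peaks over them ranked 45.7% and 54% down those of replicates 2 and 3. Another H3K27ac replicate 3 peak within 1 kb of the start site ranked 16.8% down. Neither H3K4me3 nor H3K27me3 had a peak within 1 kb of the start site in any library. No replicated H3K27me3 region lay in the Scn10a window, although H3K27me3 replicate 1 had 3 single-library peaks there and replicate 3 had 5.

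Scn11a, the neighbouring gene, encodes a channel with a persistent current in pain-sensing neurons. Its window contained 10 peaks of ISL1_26 and 4, 2 and 7 of ISL1_70 replicates 1 to 3, in 3 replicated regions. The leading one, chr9:119785416-119786468, lies inside the gene and ranked in the top 2.17% of the ISL1_26 list and the top 2.12% of ISL1_70 replicate 3. Only H3K27ac replicate 2 overlapped it. The region at chr9:119804013-119804926 lies inside a 3.10-kb H3K27ac region, and another, chr9:119745428-119746259, lies between Scn11a and Scn10a and is acetylated too. In the former, ISL1 ranked 84.7% of the way down the ISL1_26 list and 93.6% down that of ISL1_70 replicate 3. In the latter, it ranked 9.06% down the list of ISL1_70 replicate 2 and 97.7% down that of replicate 3. In both, the ISL1 peaks overlapped only at their edges. No target had a peak within 1 kb of the Scn11a start site, so the marks at this gene were all away from its promoter. H3K27me3 was not replicated in its window, with 2 peaks in replicate 3 and 0 in replicates 1 and 2.

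On chromosome 9, 34.4 kb separate Scn10a from Scn11a, and together with their flanks they span 257 kb. This stretch held 8 replicated ISL1 regions, 3.11 per 100 kb, of which 5 were in the Scn10a window and 3 in that of Scn11a. It also held 11 replicated H3K27ac regions, all called in H3K27ac replicates 2 and 3 and none in replicate 1. They amounted to 4.28 per 100 kb, against 3.35 over all genes. Replicated H3K4me3 and H3K27me3 regions numbered 0 there, so acetylation was the only histone mark replicated at this pair of genes. Of genes with windows of like length, 79.6% had replicated H3K27ac, 38.7% replicated H3K27me3 and 13.5% replicated H3K4me3. Acetylation is thus the mark that most genes carry. The 2 windows share a short stretch, in which 1 H3K27ac region was counted for both.

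**Figure D3:**
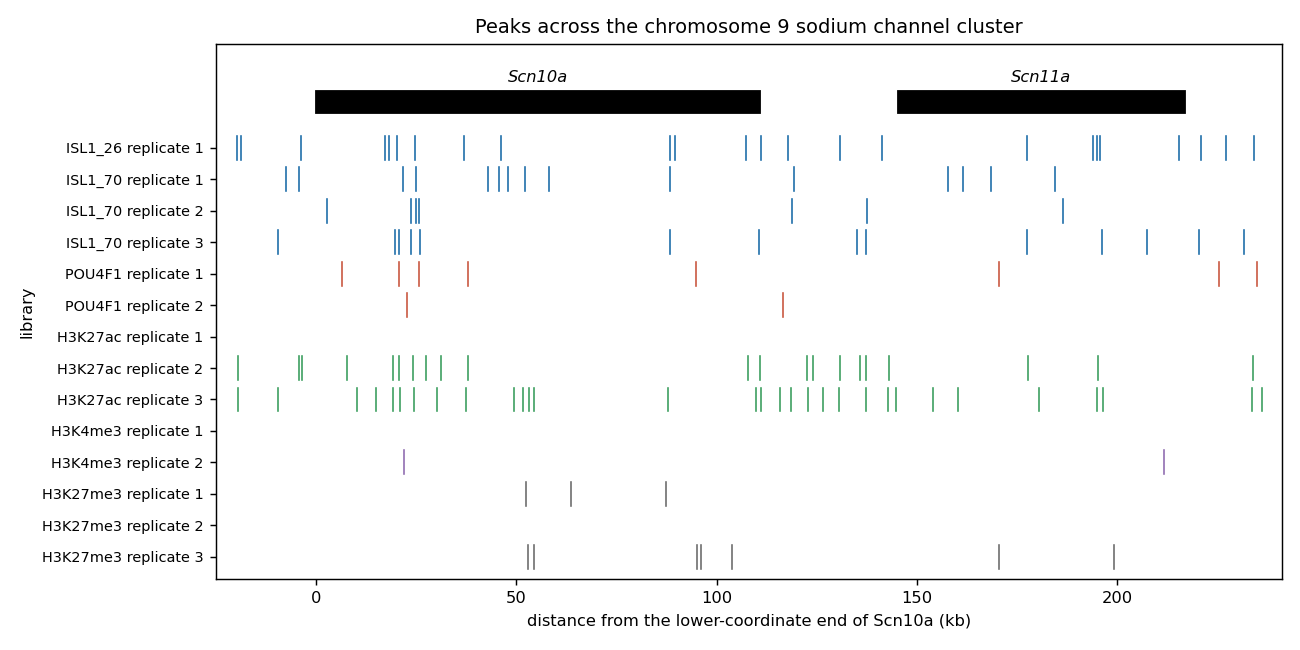
Peaks of 14 libraries (rows, each tick the centre of a peak) across Scn10a and Scn11a on chromosome 9 (black boxes) with 20 kb on each side; the horizontal axis is the distance from the lower-coordinate end of Scn10a in kb. All 4 ISL1 libraries have ticks within the ISL1 region whose centre is 24.8 kb inside Scn10a, and H3K27ac replicate 1 has no peak in the stretch.

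Scn9a, which encodes a channel of sensory and sympathetic neurons that is required for pain in humans, had the most replicated ISL1 regions of the 8 genes, 6 in a window of 195 kb, or 3.08 per 100 kb. The window contained 16 peaks of ISL1_26 and 13, 3 and 5 of ISL1_70 replicates 1 to 3. Without ISL1_26, 2 regions stayed replicated in this window, the same number as for Scn10a and for Scn3b. Inside the gene, chr2:66610742-66611892 was called in all 4 libraries. It ranked 10.8% of the way down the ISL1_26 list and 1.26%, 2.66% and 58.1% of the way down those of ISL1_70 replicates 1 to 3. It also held a weak POU4F1 replicate 1 peak (−log10 q of 17.1). Another, chr2:66581546-66583313, was called in 3 libraries and ranked 0.861% of the way down the list of ISL1_26, 12.2% down that of ISL1_70 replicate 1 and 95.3% down that of replicate 3. There the ISL1_70 replicate 1 and replicate 3 peaks did not overlap each other and were joined through the ISL1_26 peak. Their summits lay at 0.388 and −0.493 kb from the centre of the region. Neither of these regions had replicated H3K27ac, with 1 H3K27ac library over each. In the flanks, chr2:66651963-66652785 ranked 90.9%, 90.2% and 92.7% down the lists of ISL1_26 and ISL1_70 replicates 2 and 3. The region chr2:66475196-66475747 ranked 93.7% down that of ISL1_26 and 44.4% down that of ISL1_70 replicate 3. For chr2:66644567-66645174 the ranks were 73.5% (ISL1_26) and 36.9% (ISL1_70 replicate 1).

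At the Scn9a start site, 4 of the 5 targets were replicated. ISL1 was called at chr2:66634467-66635031 in ISL1_26 (top 1.37% of its list) and ISL1_70 replicate 1 (top 8.73%). Over the same bases lay H3K27ac of all 3 libraries, H3K4me3 of both libraries and H3K27me3 of all 3 libraries. The H3K27ac peak ranked 90.4%, 2.79% and 1.18% of the way down the lists of H3K27ac replicates 1 to 3. The H3K27me3 peak ranked 61.9%, 18.9% and 4.10% of the way down those of H3K27me3 replicates 1 to 3. Both marks on lysine 27 thus ranked high in some libraries and low in replicate 1 of each. The printed stretch of the Scn9a promoter was overlapped by ISL1 peaks of 2 libraries, H3K27ac of 2, H3K4me3 of 2 and H3K27me3 of 3. The ISL1 peaks reached only the end of the stretch nearest the start site. They ended at chr2:66635031 in ISL1_26 and at chr2:66634963 in ISL1_70 replicate 1, and neither covered the CTAATG match.

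**Figure D4:**
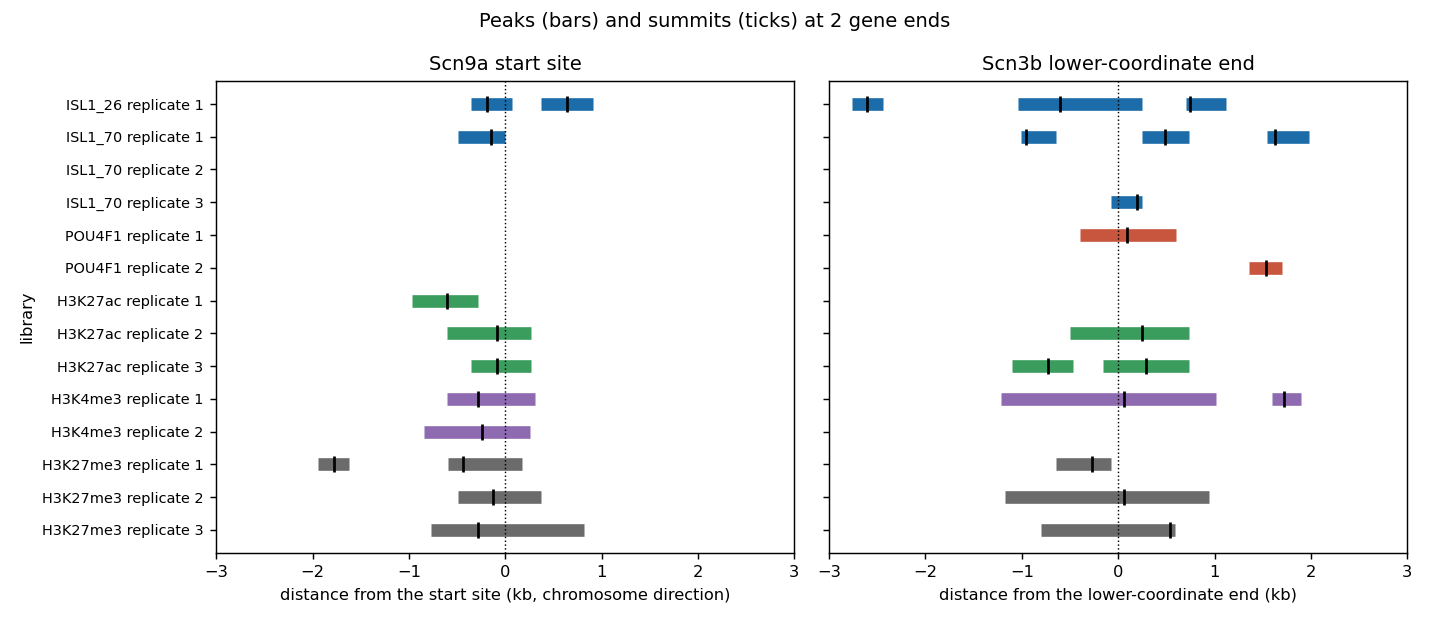
Peaks (bars) and their summits (black ticks) in 14 libraries (rows) within 3 kb of the Scn9a start site (left) and of the lower-coordinate end of Scn3b (right); the horizontal axis is the distance in kb along the chromosome, with the site at the dotted line. H3K27ac and H3K27me3 peaks of at least 2 libraries each overlap at both sites, and only at Scn3b does a POU4F1 peak cover the site.

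Scn8a, an alpha subunit of axon initial segments and nodes of Ranvier, had the CpG-rich promoter printed above and 2 replicated ISL1 regions. One of them, chr15:100871562-100871955, lies 1.11 kb downstream of the start site with a replicated H3K4me3 region and H3K27ac of replicates 2 and 3. Its ISL1 peaks were modest, ranked 26.1% of the way down the ISL1_26 list and 90.0% of the way down that of ISL1_70 replicate 1. The other, chr15:100898593-100899184, ranked 9.92% of the way down the ISL1_26 list and 8.07% down that of ISL1_70 replicate 2. Only H3K27ac replicate 2 overlapped it. Replicated H3K27me3 lay at the end of Scn8a opposite the start site, in 3 regions between chr15:101038716 and chr15:101055081. These regions run toward the neighbouring gene Fignl2. Beyond them the window reached a 9.37-kb H3K27ac region over Fignl2 (chr15:101062448-101071814), with only 0.128% of H3K27ac regions wider. Part of the marked sequence in this window thus lies over another gene.

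Scn1a, an alpha subunit best known from inhibitory neurons and epilepsy, had 2 replicated ISL1 regions, both inside the gene and both from ISL1_26 and ISL1_70 replicate 1. At chr2:66368089-66368650 the region coincided with H3K27ac of 2 libraries. H3K27me3 was replicated at chr2:66407346-66407938 and chr2:66408210-66409642, also inside the gene. The former rests in part on a peak of H3K27me3 replicate 1 with a −log10 q of 1.09, near the end of that list. At the start site only single libraries had peaks, 1 of ISL1, 1 of H3K4me3 and 1 of H3K27me3.

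Scn3a, an alpha subunit prominent in the embryonic nervous system, was the 1 gene of the 8 without an H3K27me3 peak in any library. It had 3 replicated ISL1 regions and no H3K27ac on any of them. The region at chr2:65450580-65451516, 5.60 kb below the lower end of the gene, was called in 3 libraries. Its ISL1_70 replicate 1 and replicate 2 peaks did not overlap each other and were joined through the ISL1_26 peak. At chr2:65457336-65458407, inside the gene near that end, ISL1 ranked in the top 8% of ISL1_26 and the top 48.9% of ISL1_70 replicate 2. These peaks overlapped only at their edges, with summits at 0.211 kb (ISL1_26) and −0.343 kb (ISL1_70 replicate 2) from the centre of the region. The nearest replicated acetylation, 15.0 kb below the gene at chr2:65441108-65442123, was called in all 3 H3K27ac libraries.

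On chromosome 2 Scn3a, Scn2a, Scn1a, Scn9a and Scn7a lie within 1370 kb with flanks. The span contained 23 replicated ISL1 regions, 1.68 per 100 kb, of which 3 were in the Scn3a window, 2 in that of Scn1a and 6 in that of Scn9a. The remaining 12 lay outside these windows. All 3 others that were called in 4 libraries fell in the 503-kb interval between Scn2a and Scn1a, which holds other genes: 1 outside any gene (chr2:65832363-65834469), 1 in Csrnp3 and 1 in Ttc21b. Scn2a itself, which encodes an alpha subunit of the brain, had no replicated region of any target in its window.

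**Figure D5:**
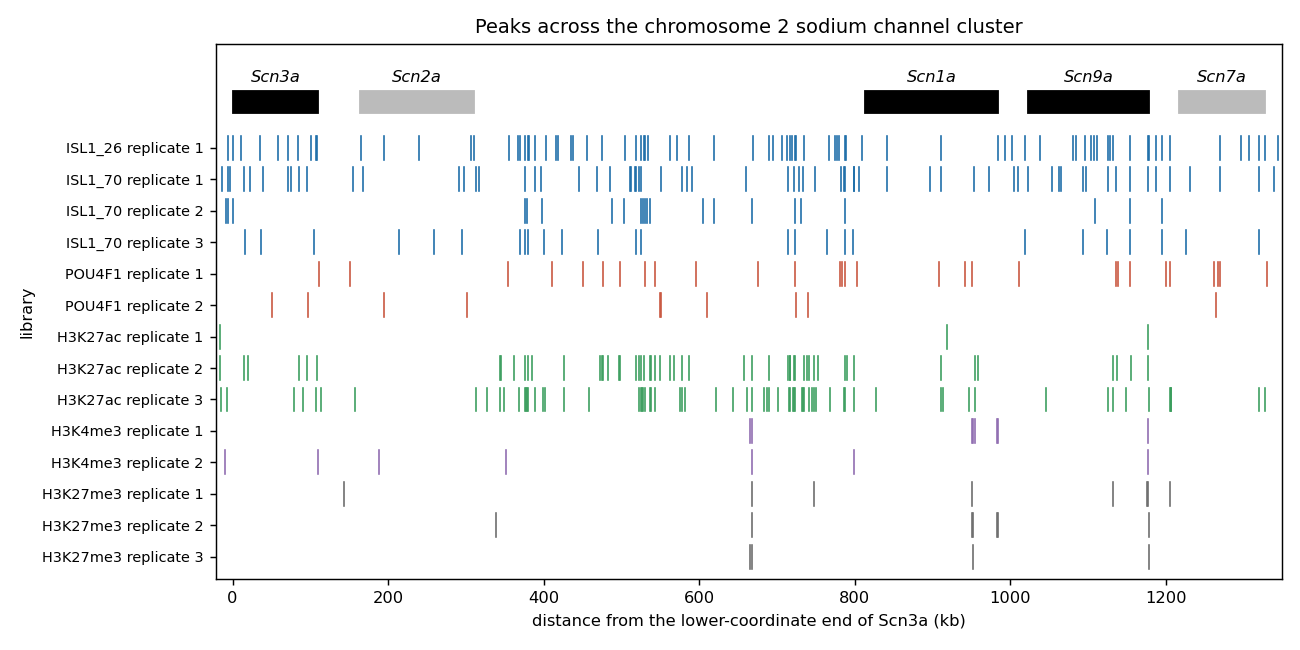
Peaks of 14 libraries (rows, each tick the centre of a peak) across the chromosome 2 cluster; the horizontal axis is the distance from the lower-coordinate end of Scn3a in kb, black boxes are sodium channel genes described here and grey boxes are Scn2a and Scn7a. ISL1 and H3K27ac ticks are frequent in the 503-kb interval between Scn2a and Scn1a, and the 3 H3K27me3 libraries coincide at the Scn9a start.

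The beta subunits differed from each other. Scn3b had ISL1 at its lower-coordinate end, chr9:40268179-40270330, called in 3 libraries, with 2.89% of ISL1 regions wider. The width came from a chain of shorter peaks, some joined only at their edges. ISL1_26 and ISL1_70 replicate 1 had 2 peaks each there, and replicate 3 had 1. Their summits lay between −0.996 and 0.709 kb from the centre of the region. The best peaks ranked 14.3%, 23.4% and 78.7% of the way down these 3 lists. On the same spot POU4F1 replicate 1 had a peak (chr9:40268823-40269815) with a fold enrichment, as the authors' caller gave it, of 165 and a −log10 q of 596, in the top 0.242% of its list. This was the highest ranked POU4F1 peak in any of the 8 windows, and POU4F1 replicate 2 had none there but a peak 1.53 kb from this end (top 39.0%). H3K27ac of replicates 2 and 3, H3K27me3 of all 3 libraries and the library labelled H3K4me3 replicate 1 overlapped the ISL1 region as well, while H3K4me3 replicate 2 did not. The H3K27me3 replicate 1 peak there had a −log10 q of 1.09, near the end of its list.

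Scn2b was the 1 gene without a replicated ISL1 region, with 2 peaks of ISL1_26 and 1, 2 and 2 peaks of ISL1_70 replicates 1 to 3 at separate positions. H3K27me3 covered 4.45%, 31.5% and 41.8% of its window in replicates 1 to 3, at percentiles of 97.3 to 98.3 among all genes. Most of this cover was a 19.1-kb domain, chr9:45133882-45153011, that begins 3.81 kb downstream of Scn2b and lies over Scn4b, another beta subunit gene 8.55 kb away. The replicated H3K4me3 region of this window, chr9:45133900-45152907, nearly coincided with that domain. H3K4me3 peaks covered 33.3% of the window in replicate 1 and 2.32% in replicate 2. A smaller H3K27me3 region overlapped the 3′ end of Scn2b (chr9:45129949-45130277), and another lay 0.553 kb upstream of the gene (chr9:45115580-45117323). At the start site H3K27ac was called in replicate 3 alone.

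Scn9a and Scn3b, 2 of the 8 genes, had both replicated H3K27ac and replicated H3K27me3 at a gene end (within 1 kb of it), against 8.04% of all genes. Counted with or without the other mark, replicated H3K27ac was at a gene end in 3 genes, against 47.5% of all genes. Replicated H3K27me3, counted likewise, was at a gene end in 4 genes, against 20.5% of all genes. ISL1 was replicated at a gene end in Scn3a, Scn9a, Scn10a and Scn3b, 4 of 8 genes, against 15.3% of all genes. In Scn3a, Scn9a and Scn10a the region paired ISL1_26 with a single ISL1_70 library, so without ISL1_26 it is not replicated. H3K4me3 was replicated at a gene end in 2 genes, Scn8a and Scn9a, against 7.47% of all genes, and POU4F1 in 0, against 0.503%. At the upper end of Scn8a this H3K4me3 region overlapped H3K27me3 of all 3 libraries. Of the 23 ISL1 regions, 2 overlapped replicated H3K27me3, those at the ends of Scn9a and Scn3b, against 6.94% of all ISL1 regions.

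Among 4 other sodium channel subunit genes, Scn7a, which encodes a sodium-sensing member of the family, had 2 replicated ISL1 regions, while Scn2a, Scn4a (the skeletal muscle alpha subunit) and Scn4b had 0. These 4 genes held 0.415 regions per 100 kb of window, against 2.00 in the 8 genes described above. Both sets of subunits were chosen with earlier results of these data known, so these densities cannot show a difference between subunits. Among 11 genes whose products bind or place these channels, 9 had a replicated ISL1 region, against 45.6% of all genes, at 1.19 regions per 100 kb of window, against 1.07 over all genes. Their density was thus near that of all genes. Ank3, which encodes the ankyrin that anchors sodium channels at the axon initial segment, is 494 kb long and had 16 regions, and Ank2, another ankyrin gene of 579 kb, had 10. The adhesion molecules Nfasc and Cntn1, which act at nodes and along axons, had 6 each. Dpysl2, a growth cone protein that also affects sodium channel trafficking, had 3, and the channel-binding Fgf12 and Fgf13 and the spectrin gene Sptbn4 had 2 each. Fgf11, of the same family as Fgf12, had 1. H3K27ac was replicated in 9 of these 11 windows, against 69.8% of all genes, and H3K27me3 in 10, against 37.5% of all genes, and several of these windows are far longer than those of the 8 channel genes.

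The profile of each gene over the 14 libraries, as percentiles of the percent of window covered, was compared with the mean profile of the 8 genes. Pearson r with that mean was highest for Scn9a (0.779) and Scn11a (0.689) and lowest for Scn8a (0.125) and Scn2b (0.108). The 8 genes thus did not share 1 profile. Outside the family, the most alike genes by the same measure were Itpr1 (r = 0.901), Kcnip1 (0.885), Rimbp2 (0.885), Gm2663 (0.876) and Tapbpl (0.870). These values describe 14 libraries that share targets and tissue, and list length differs between them.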

How the data were processed

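CUT&Tag libraries of 5 targets were analysed from 14 peak lists, each from a single library. MACS2 called the peaks, per the file headers (the peak names); its options and control library were not given in the sources used here. FastQC, Bowtie2, SEACR and the build mm10 are named, per the submitters' processing notes. The deposited columns are a score, the fold enrichment (a ratio of peak to local background), the −log10 p-value and the −log10 q-value, all computed by the authors' caller. The lists stop near a −log10 q of 1. These values were used only to rank peaks within a list, since the depth of the libraries is unknown.

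Genes came from a RefSeq table of GRCm38.p6 with 21887 protein-coding genes and no exons, so "inside the gene" covers exons and introns. Start sites and strands came from the RefSeq promoter table (Scn1a, Scn8a, Scn9a, Scn10a, Scn11a and Scn2b), and either gene end was used for Scn3a and Scn3b. Peaks of 1 target were joined where they shared at least 1 bp, and a joined region was called replicated if at least 2 libraries contributed to it. A gene end means within 1 kb of either end of the gene in the table. Counts over the 8 genes are set beside the share of all protein-coding genes, and beside that of the 11725 genes with windows of 52.2 to 216 kb, the range of the 8. No test was made over the 8 genes. Python 3.11.15, numpy 2.4.6 and pandas 2.3.3 were used, and the interval functions were tested on simulated data.

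The genes, the lists of other subunits and partners and the markers were chosen with earlier results of these data known. All 8 genes are named. Of the lists, genes with a replicated ISL1 region are named in order of their number of regions, and those without one are named for completeness among the subunits. Some subunit genes are not reported here. Neighbouring genes are named where they overlap a described region, and the 5 most alike genes by Pearson r.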

Additional observations from a re-analysis of the deposited data

How the results depend on the processing

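Of 76 values recomputed under other settings, apart from leaving out a library, 63 stayed near the reported value and 13 did not. Near meant within 1.5 times the count, or within 1 SD over libraries for the percent covered. That SD ran from 0.24 (H3K4me3, percent covered 0.766) to 2.79 (H3K27ac, 3.24), so the criterion was loose for some targets. For POU4F1 and H3K4me3, with 2 libraries each, a peak in every library is the rule already used, so those counts could not change. With flanks of 50 kb in place of 20 kb, 14 ISL1 regions overlapped replicated H3K27ac and 9 held a POU4F1 peak, and the median percent of window covered was 1.36 for H3K4me3 and 1.64 for H3K27me3, against 0.766 and 0.931 with 20 kb. Requiring a peak in every library of the target left ISL1 in 2 genes and H3K27ac in 3 genes, with 2 ISL1 regions in all, of which 0 overlapped such an H3K27ac region and 2 held a POU4F1 peak. With peaks reduced to their summits, extended by 100 bp both ways, there were 14 ISL1 regions, 3 on H3K27ac and 1 with POU4F1, and H3K27me3 was replicated in 3 genes. When single libraries were left out, the number of genes ranged from 4 to 7 for ISL1, 3 to 8 for H3K27ac, 5 to 8 for POU4F1, 5 to 8 for H3K4me3 and 4 to 5 for H3K27me3. For POU4F1 and H3K4me3 this leaves 1 library, whose peaks cannot be replicated, so these counts are of peaks in that library. ISL1 regions ranged from 7 (without ISL1_26) to 20, those on H3K27ac from 1 to 9 and those with POU4F1 from 1 to 4. The causes were not tested. No paired analysis was possible because the results are counts and positions with no test. Depth and control libraries are unknown, so an absent peak may be one not detectable at this depth, and counts of peaks cannot be compared between libraries as amounts of binding.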
